A study of Bos taurus with 12 samples.

Results

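Serpins, plasminogen activators and WFDC inhibitors form one system of proteases and protease inhibitors, and their expression was followed in the endometrium of 3 cows after povidone-iodine was given into the uterus. The set was made of every gene on the array whose name starts with SERPIN or is WFDC with a number, together with PLAU, PLAUR, PLAT, SLPI and PI3. This gave 44 genes of 25314 gene names on the array, measured by 94 probes, and each gene was represented by its brightest probe. Of these, 35 genes were well above background on at least 3 of the 12 arrays and were tested. The other 9 were SERPINA7, SERPINA10, SERPINA3-7 and SERPINA3-8, which were above background on 0 arrays, and SERPINA3-1, SERPINA3-2, SERPINB7, SERPINE3 and WFDC8, which were above it on 1 or 2.

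Biopsies of the endometrium of fertile cows (Bos taurus) were taken on days 0, 2, 7 and 14, from the same 3 animals each time, and total RNA of each biopsy was put on 1 one-colour array. Every group therefore holds 3 arrays, 1 per cow, and all 4 groups come from animals that received povidone-iodine (PVP-I, an iodine-releasing antiseptic). The samples analysed here include no untreated animal, so time and treatment cannot be told apart. The labels give neither the breed, the age, the stage of the oestrous cycle nor the uterine horn, and they do not say whether the day 0 biopsy came before the antiseptic.

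Plasminogen, a liver protein, is cut to the protease plasmin by urokinase (PLAU) or the tissue activator (PLAT), and plasmin then dissolves fibrin and opens up matrix. PLAUR holds urokinase at the cell surface, while serpins trap the activators by a one-time change of shape that uses up both partners. Other serpins block clotting and neutrophil proteases, some have lost inhibition and work as chaperones or hormone carriers, and WFDC proteins such as SLPI and PI3 carry small disulphide-bonded domains that block elastase. In ruminants the uterine glands secrete a serpin of their own, SERPINA14, the uterine milk protein.

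The signals of the arrays were broadly similar in strength. Their 75th percentiles ran from 824 to 1117 intensity units, and 71.3% to 76.0% of probes were well above background, except for day 2 of cow 3 with 63.2%. The 75th percentile, which is subtracted from every gene, was lower on every day 2 and day 7 array (at most 953) than on any day 0 array (at least 989). No spot was saturated. Arrays are named here by the columns of the deposited value table, each of which matched the scanner data of 1 array (r = 1.0 over all probes, at most 0.52 for the next best array). The links between scanner data and samples name another sample for 10 of the 12 arrays, and under those links 0 of the genes described here passed the test on day 2 or day 7 (0 also at an unadjusted p of 0.05), against 3 and 13 here. Every call below rests on the table's naming.

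The probes are 60 bases long, and some of them show what was and was not measured. Coordinates are those of the array design, on the bovine build HGSC Btau 3.1. SERPINA14 was read by a single probe, at chr21:59392443-59392502 on the minus strand, and it carries the largest change of the set. Of the PLAU probes, 2 cross an intron and match spliced RNA, and the one shown covers 60 bases spread over 678 bases of the genome (chr28:29179097-29179774, plus strand). The single SERPINA3-6 probe lies at chr21:59646885-59646944 on the plus strand.
SERPINA14: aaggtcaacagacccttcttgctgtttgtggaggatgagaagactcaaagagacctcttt
PLAU: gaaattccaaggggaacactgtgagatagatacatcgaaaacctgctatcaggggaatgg
SERPINA3-6: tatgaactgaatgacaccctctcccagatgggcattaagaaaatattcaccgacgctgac

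Some SERPINA3 probes share long stretches. The capitals below mark a run of 28 bases common to a probe of SERPINA3 (chr21:59694398-59696288, plus strand) and the probe of SERPINA3-2 (chr21:59539395-59541862, plus strand); neither passed the filter, with 0 and 2 arrays above background. A pair of SERPINA3-7 probes made from different database entries differs only by C40A, T56A and T57G, with positions counted from 1 at the probe's 5′ end. The SERPINA3-6 probe shares no run of that length with another probe of the set, but the copies are a multigene family, and which copy a signal comes from is uncertain.
SERPINA3: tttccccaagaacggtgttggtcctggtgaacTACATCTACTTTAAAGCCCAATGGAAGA
SERPINA3-2: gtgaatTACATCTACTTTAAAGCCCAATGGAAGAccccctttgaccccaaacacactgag

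Both less bright PI3 probes lie in a repeat. The capitals mark the 11 bases CAAGATCCAGT, the longest run that is present 3 times in each probe (A at chr13:74293171-74293230 and B at chr13:74293233-74293292, both on the plus strand). Over both strands this motif occurs in 6 of 43653 probes of the array (0.0137%, all on the probe strand). Probe B also shares 44 bases in a row with a probe of an unnamed transcript, so it cannot be assigned to PI3 alone. The brightest PI3 probe has no copy of the repeat and holds the letters AATAAA of the polyadenylation signal on the probe strand. So do 10 of the 44 brightest probes of the set (22.7%). Without picking the brightest, 13 of the 94 probes of the set hold these letters, beside 9.35% of all probes of the array.
PI3 probe A: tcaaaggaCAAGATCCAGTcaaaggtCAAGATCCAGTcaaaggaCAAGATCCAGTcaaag
PI3 probe B: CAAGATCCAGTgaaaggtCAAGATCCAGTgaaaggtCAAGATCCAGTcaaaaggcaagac

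On day 7, 11 of the 35 tested genes were higher than on day 0 and 2 were lower. Those that rose included the urokinase pair PLAU and PLAUR, the inhibitors SERPINF2 and SERPINC1, the uterine serpin SERPINA14 with SERPINA11 and SERPINA3-6, SERPINB8, the collagen chaperone SERPINH1 and SERPINF1, and those that fell were SERPINI1 and WFDC11. The 13 genes called in either direction are 37.1% of those tested, while 18.5% of all 19128 genes were called on that day (9.7% higher, 8.81% lower). On day 2, 3 of 35 rose (SERPINA11 and SERPINH1 among them; 8.57%, against 2.77% of all genes, 1.69% higher and 1.08% lower) and 0 fell. Called means an adjusted p of at most 0.05 in limma, with the cow as a block, all 12 arrays in the fit and Benjamini-Hochberg adjustment over 33539 probes. The median log2 change of the 35 genes was 0.53 on day 2 and 0.74 on day 7, beside -0.02 and 0.01 for all genes. A filter on low values favours genes that are high in some group, so these shares and medians describe the 35 genes only. SERPINA3-6 was above background on no day 0 array and WFDC11 on no day 7 array, so both passed the filter through other days.

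**Figure D1:**
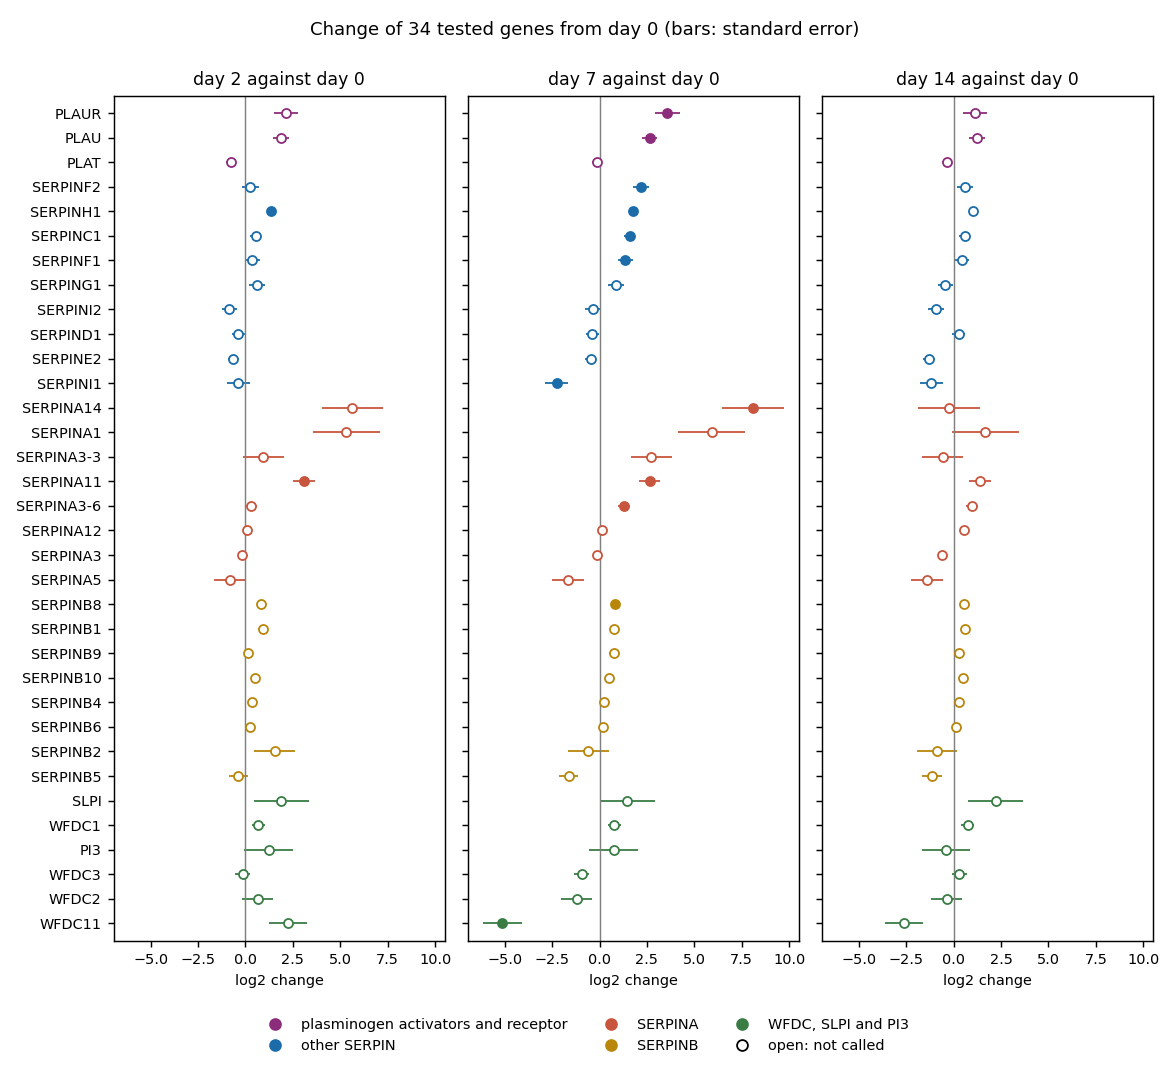
Log2 change from day 0 of 34 tested genes on days 2, 7 and 14 (x axis; points are estimates over 3 cows, bars their standard errors, filled points passed the limma test). SERPINA14 lies farthest to the right on day 7 at 8.08, WFDC11 farthest to the left at -5.12, and no point of day 14 is filled.

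The calls depended on cows 1 and 2. Without cow 1 none of the 13 day 7 calls remained (0 called, 16 at an unadjusted p of 0.05, and 0% of all genes called), and without cow 2 only WFDC11 remained (adjusted p = 0.0482 by limma; 0.659% of all genes called). Without cow 3, 12 of the 13 remained and 16 genes were called in all, beside 19.2% of all genes. The 3 day 2 calls went to 0 without cow 1 or cow 2, to 2 without cow 3, and to 1 without the day 2 array of cow 3, which had the lowest share of probes above background. All directions of called changes were kept in these fits. With only the days compared in the fit, 8 of the 35 genes were called on day 7 beside 6.2% of all genes, and 7 of the 13 calls remained. Among the lost calls were SERPINA11 (adjusted p = 0.0510), SERPINF2 (0.0799), SERPINA3-6 (0.0906), SERPINI1 (0.0972) and SERPINB8 (0.110), and on day 2 SERPINH1 (0.0541).

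Among the plasminogen activators, urokinase and its receptor rose while the tissue activator did not pass the test. Levels are given as log2 intensity above or below the array's 75th percentile, where a step of 1 is a 2-fold difference. PLAU stood at 0.33, -0.16 and 0.33 at day 0 (cows 1, 2 and 3), at 2.33, 2.00 and 1.76 at day 2, at 2.66, 3.36 and 2.39 at day 7, and at 1.27, 2.47 and 0.45 at day 14. Every later array was above all day 0 arrays, and cow 3 was the lowest on each of the later days. The day 7 change was 2.64 ± 0.41 (log2, SE; 6.22-fold) with an adjusted p of 0.00714, and the day 2 change of 1.86 ± 0.41 had an adjusted p of 0.0564, or 0.0382 with the mean of all its probes. All 3 PLAU probes, both intron-crossing ones among them, were called on day 7, with changes from 2.64 to 3.75.

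PLAUR, the urokinase receptor, was dim on day 0, at -3.87, -3.20 and -2.57. It read -0.64, -0.98 and -1.62 at day 2, 0.92, 0.54 and -0.36 at day 7, and -2.46, -0.43 and -3.39 at day 14. The days 2 and 7 did not overlap day 0, whereas on day 14 cow 3 was below its own day 0 value. By day 7 PLAUR had risen by 3.58 ± 0.64 (log2, SE; 11.97-fold, adjusted p = 0.0108), and its other probe by 4.15. With normexp background correction and quantile normalisation the rise was 2.99. The day 2 difference was 2.13 ± 0.64 (adjusted p = 0.115).

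PLAT, the tissue activator, was bright throughout. Its levels were 4.87, 4.66 and 4.96 at day 0, 4.53, 4.26 and 3.39 at day 2, 5.08, 4.76 and 4.17 at day 7, and 4.91, 4.77 and 3.79 at day 14. The day 2 arrays were all below the day 0 arrays, and cow 3 was the lowest on days 2, 7 and 14. The log2 differences from day 0 were -0.77 ± 0.26, -0.16 ± 0.26 and -0.34 ± 0.26 (SE), with adjusted p of 0.153, 0.705 and 0.491. Without cow 3 the day 7 difference turned to 0.16.

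**Figure D2:**
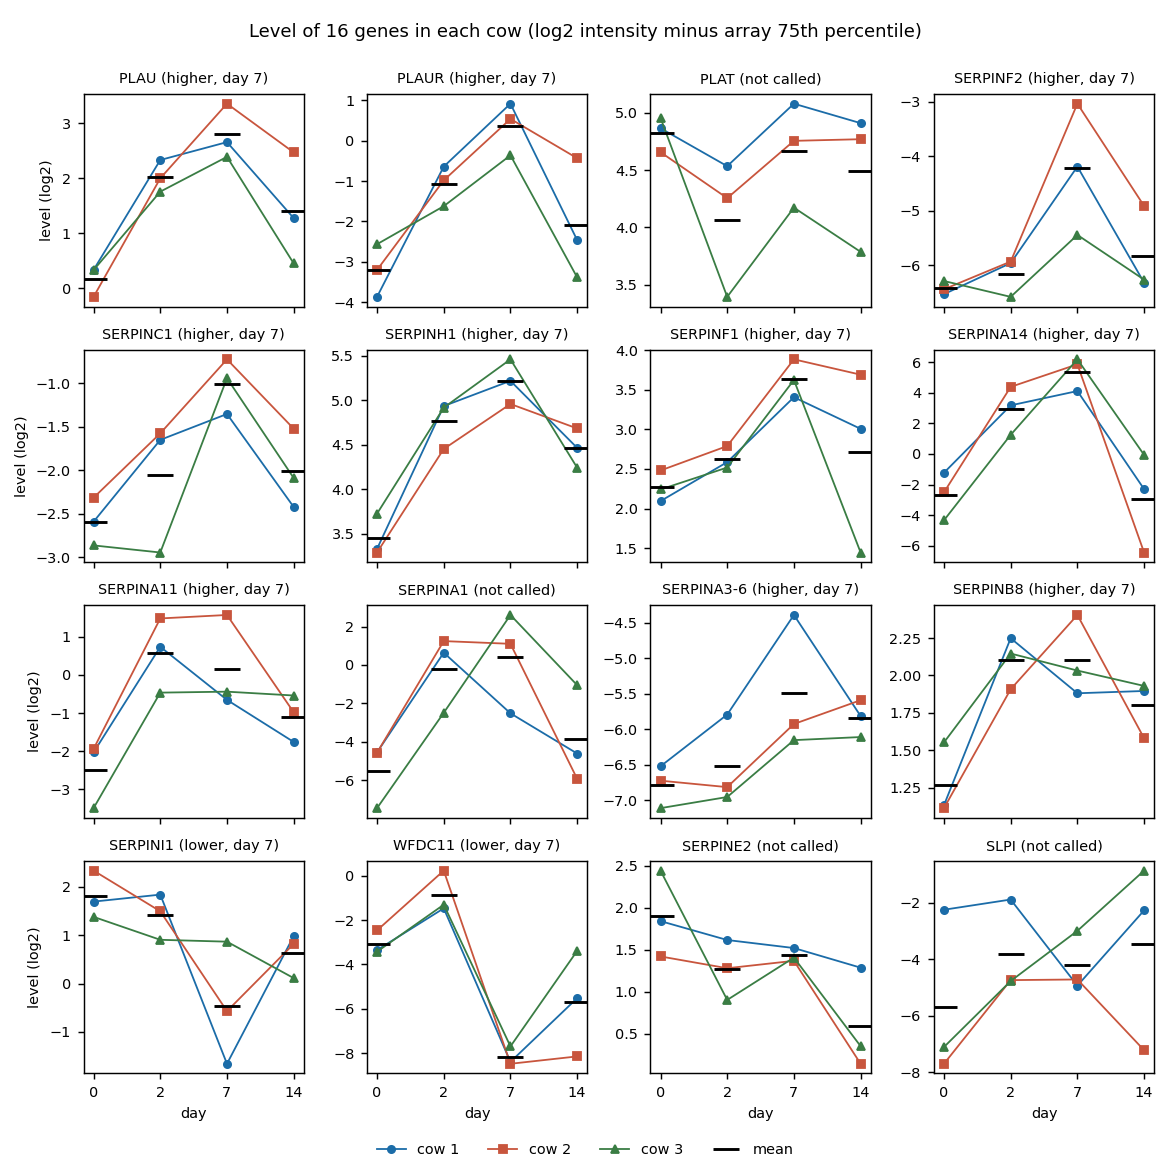
Level of 16 genes (y axis, log2 intensity minus the array's 75th percentile, a scale of its own in each panel) against the day of biopsy (x axis, not to scale), with 1 line per cow and a bar at the mean of 3 cows. PLAU, PLAUR and SERPINA14 climb to day 7 in all 3 cows, SERPINH1 is already high on day 2, and WFDC11 is not well above background on any day 7 array.

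Among the inhibitors of this axis, SERPINF2 (alpha-2-antiplasmin), which traps free plasmin, was near the detection limit on day 0 and rose on day 7. It read -6.53, -6.44 and -6.29 at day 0, with 2 of 3 arrays above background, -5.96, -5.93 and -6.58 at day 2, -4.19, -3.04 and -5.44 at day 7, and -6.32, -4.91 and -6.26 at day 14. On day 7 all arrays were above background and above every day 0 array, cow 2 the most and cow 3 the least. The day 7 rise was 2.19 ± 0.43 (log2, SE; 4.58-fold, adjusted p = 0.0144). With normexp background correction and quantile normalisation it was 0.74 (adjusted p = 0.0327).

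SERPINE2 (protease nexin-1), which inhibits thrombin and urokinase, had its highest values on day 0 with 1.84, 1.42 and 2.44. It read 1.61, 1.28 and 0.90 at day 2, 1.52, 1.37 and 1.40 at day 7, and 1.28, 0.14 and 0.35 at day 14. The day 14 arrays lay below all day 0 arrays, by -1.31 ± 0.31 in the mean, which did not pass the test (adjusted p = 0.0879). The day 7 difference was -0.47 ± 0.31 (adjusted p = 0.314).

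SERPINB2 (plasminogen activator inhibitor-2), an inhibitor known from macrophages and stressed epithelium, was above background on only 4 of 12 arrays. Cow 1 read -3.70 on day 0 and cows 2 and 3 read -8.95 and -7.58. Day 2 gave -3.11, -4.92 and -7.60, day 7 gave -7.57, -6.40 and -8.01, and day 14 gave -5.37, -8.92 and -8.56. Groups overlapped on all days. The differences from day 0 were 1.53 ± 1.07, -0.59 ± 1.07 and -0.88 ± 1.07, none of which was called, and the day 7 sign turned without cow 1, to 1.06. SERPINA5, the protein C inhibitor, which also acts on urokinase, differed by -1.65 ± 0.84 on day 7 (adjusted p = 0.201), with cow 3 moving the other way. The database entry of the SERPINA5 probe now carries another symbol, so this assignment is uncertain.

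Among the serpins of clotting and complement, SERPINC1 (antithrombin, the main inhibitor of thrombin) rose on day 7. Its levels were -2.59, -2.31 and -2.86 at day 0, -1.65, -1.57 and -2.94 at day 2, -1.35, -0.72 and -0.94 at day 7, and -2.42, -1.52 and -2.09 at day 14. The day 7 arrays were above all arrays of the other days. The change was 1.58 ± 0.31 (log2, SE; 3.00-fold, adjusted p = 0.0136), and a second probe, also called, gave 1.13. SERPING1, the C1 inhibitor, differed by 0.87 ± 0.41 (adjusted p = 0.166) and SERPIND1, heparin cofactor II, by -0.37 ± 0.35 (adjusted p = 0.49), so antithrombin alone of these genes was called, a difference between them that was not tested.

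SERPINA14, the uterine serpin, had the largest change of the set. On day 0 it stood at -1.23, -2.51 and -4.34, on day 2 at 3.18, 4.39 and 1.25, on day 7 at 4.12, 5.87 and 6.19, and on day 14 at -2.30, -6.45 and -0.06. Days 2 and 7 were far above day 0 in each cow, and on day 14 the cows spread from background in cow 2 to above its day 0 level in cow 3. The day 7 rise was 8.08 ± 1.62 (log2, SE; 271-fold, adjusted p = 0.015), and without cows 1, 2 or 3 in turn it was 9.45, 7.94 or 6.86. With normexp background correction and quantile normalisation it was 7.43. The day 2 difference of 5.63 ± 1.62 (49.7-fold) was not called (adjusted p = 0.105), nor was the day 14 difference of -0.24 ± 1.62 (adjusted p = 0.947). From day 7 to day 14 the level changed by -8.33 ± 1.62 with the same sign in 3 of 3 cows (-6.42, -12.3 and -6.25), which also missed the threshold (adjusted p = 0.0712) but passed it with that correction (0.0342). The -12.3 of cow 2 ends at background, so its size and that of the mean are uncertain.

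SERPINA11, a serpin with no well-established target, was also higher on days 2 and 7. It read -2.03, -1.94 and -3.50 at day 0, 0.74, 1.48 and -0.46 at day 2, -0.65, 1.58 and -0.44 at day 7, and -1.76, -0.98 and -0.54 at day 14. All later arrays were above all day 0 arrays. Days 2 and 7 did not differ beyond their spread (-0.43 ± 0.56, adjusted p = 0.743), with cow 1 lower on day 7 and cows 2 and 3 almost level. The rise was 3.08 ± 0.56 on day 2 (log2, SE; 8.44-fold, adjusted p = 0.0352) and 2.65 ± 0.56 on day 7 (6.28-fold, adjusted p = 0.0179). Without the cow as a block the day 2 adjusted p was 0.0655.

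SERPINA1 (alpha-1-antitrypsin), which protects tissue from neutrophil elastase, was higher on day 7 than on day 0 by an amount that varied between cows. The difference was 2.03 log2 units in cow 1, 5.66 in cow 2 and larger in cow 3. On day 0 only 2 of 3 arrays were above background, and cow 3 had the lowest level. The size of the cow 3 difference and that of the mean are therefore uncertain. The levels were -4.54, -4.56 and -7.44 at day 0, 0.64, 1.24 and -2.48 at day 2, -2.51, 1.1 and 2.60 at day 7, and -4.60, -5.92 and -1.05 at day 14. The days 2 and 7 were above day 0 in each cow, but the cows peaked on different days, cow 3 on day 7 and cows 1 and 2 on day 2. The differences of 5.31 ± 1.77 on day 2 and 5.91 ± 1.77 on day 7 were not called (adjusted p = 0.144 and 0.0514). Without the cow as a block the day 7 adjusted p was 0.0388, and its 3 probes gave changes from 4.68 to 5.91.

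SERPINA1, SERPINA11 and SERPINA14 are neighbours. All 3 probes lie on the minus strand of chromosome 21 in this order, and the RefSeq annotation of a later build (ARS-UCD2.0) lists no other protein-coding gene between them. The next gene, SERPINA12 (vaspin, an adipose serpin), differed by 0.15 ± 0.22 on day 7 (adjusted p = 0.663), with levels between -4.47 and -3.50 over all 12 arrays. The genes beyond it, which include SERPINA5 and the SERPINA3 copies, lie on the plus strand.

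**Figure D3:**
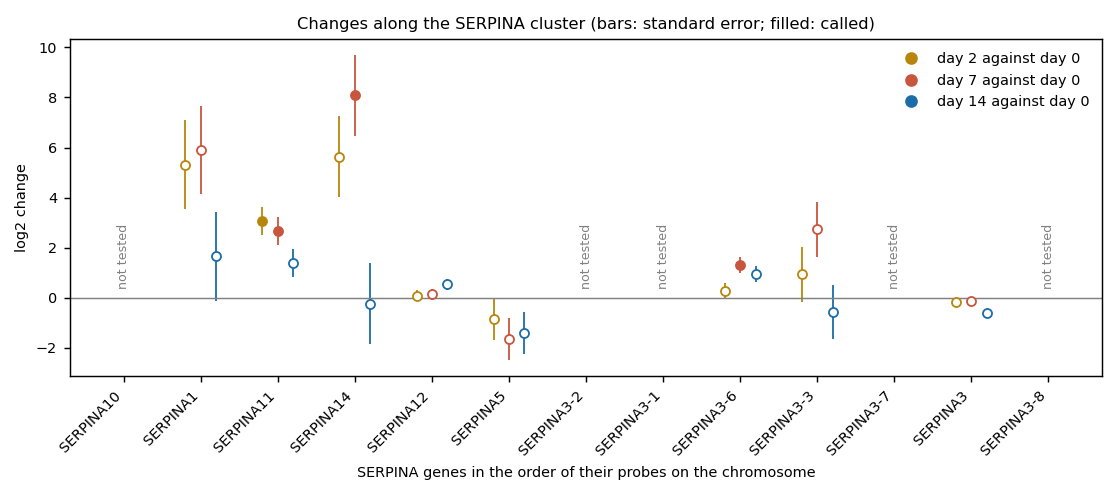
Log2 change from day 0 on days 2, 7 and 14 (y axis; points are estimates over 3 cows, bars standard errors, filled points passed the limma test) for the 13 SERPINA genes with a mapped probe, in their order on the chromosome (x axis, not to scale). SERPINA1, SERPINA11 and SERPINA14 stand together at 2.65 or more on day 7, SERPINA12 beside them lies near 0, and SERPINA3-3 farther along stands at 2.73 with a wide error. The 5 genes that did not pass the filter (SERPINA10, SERPINA3-1, SERPINA3-2, SERPINA3-7 and SERPINA3-8) have no point.

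The SERPINA3 copies, known in cattle as endopins, were mostly near or below background. SERPINA3-6 read -6.52, -6.72 and -7.11 at day 0, with 0 arrays above background, -5.79, -6.81 and -6.95 at day 2, -4.39, -5.92 and -6.15 at day 7, and -5.81, -5.59 and -6.11 at day 14. On days 7 and 14 all 3 arrays were above background and above every day 0 array. Because day 0 gives only a bound, SERPINA3-6 was at least 2.06-fold higher on day 7 (fitted log2 change 1.29 ± 0.32, adjusted p = 0.0281), where the bright group's mean is set against the lowest signal well above background on each day 0 array. The gene passed the filter only through arrays of days 2, 7 and 14, so its test against day 0 is a description. The adjusted p was 0.0872 without the cow as a block, 0.0761 without cow 3 and 0.0746 with normexp background correction and quantile normalisation. That last setting also gave a log2 change of only 0.33, below the bound above. SERPINA3-3 differed by 5.96, 3.01 and -0.77 in cows 1, 2 and 3 on day 7. It was above background on no day 0 array and in 2 of 3 cows only on day 7, so no bound is given for the group. It was not called (adjusted p = 0.115). SERPINA3 itself read between -3.77 and -2.87 on all arrays and differed by -0.14 ± 0.13 on day 7 (adjusted p = 0.484) and by -0.59 ± 0.13 on day 14 (adjusted p = 0.0802).

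Serpins that are not, or not mainly, inhibitors of circulating proteases included SERPINH1 (HSP47), the chaperone that collagen chains need to fold in the endoplasmic reticulum. It stood at 3.33, 3.29 and 3.73 at day 0, 4.93, 4.45 and 4.92 at day 2, 5.22, 4.96 and 5.46 at day 7, and 4.47, 4.68 and 4.24 at day 14. Every later array was above every day 0 array. It rose by 1.32 ± 0.21 on day 2 (log2, SE; 2.50-fold, adjusted p = 0.0253) and by 1.76 ± 0.21 on day 7 (3.39-fold, adjusted p = 0.00352), the lowest adjusted p of the set. The day 14 difference was 1.02 ± 0.21 (adjusted p = 0.0719).

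SERPINF1 (pigment epithelium-derived factor), known to restrain vessel growth, changed almost alike in the cows. Levels were 2.09, 2.48 and 2.24 at day 0, 2.59, 2.79 and 2.52 at day 2, 3.41, 3.88 and 3.62 at day 7, and 3.01, 3.69 and 1.44 at day 14. The day 7 differences within cows were 1.31, 1.40 and 1.38, and on day 14 cow 3 was below its day 0 level while the other cows were above. The rise on day 7 was 1.37 ± 0.39 (log2, SE; 2.58-fold) with an adjusted p of 0.0453, near the threshold. It became 0.0720 without the cow as a block, 0.0531 with quantile normalisation, 0.0614 without the filter on dim probes, 0.0535 with the mean of both probes and 0.0518 without the day 2 array of cow 3. Its second probe gave 1.12 and was not called (adjusted p = 0.0676).

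SERPINI1 (neuroserpin), an inhibitor of the tissue activator known from neurons, fell. It read 1.69, 2.33 and 1.38 at day 0, 1.84, 1.49 and 0.90 at day 2, -1.66, -0.57 and 0.86 at day 7, and 0.98, 0.82 and 0.11 at day 14. The day 7 arrays were all below the day 0 arrays, with cow 1 the farthest and cow 3 the least. The day 7 change was -2.25 ± 0.60 (log2, SE; 4.77-fold lower, adjusted p = 0.0368), and its second probe, also called, gave -2.31. SERPINI2 differed by -0.32 ± 0.42 and was not called (adjusted p = 0.625).

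SERPINB genes encode serpins that stay inside cells, and 1 of the 8 tested rose on day 7 (12.5%, near the 9.7% of all genes called higher). SERPINB8 stood at 1.13, 1.11 and 1.55 at day 0, 2.25, 1.91 and 2.15 at day 2, 1.88, 2.40 and 2.03 at day 7, and 1.90, 1.58 and 1.93 at day 14. All later arrays were above the day 0 arrays. Its rise on day 7 was 0.84 ± 0.21 (log2, SE; 1.79-fold, adjusted p = 0.0279), and 3 of its 4 probes were called. The other 7 had day 7 changes between -1.63 (SERPINB5, maspin, adjusted p = 0.0622) and 0.77 (SERPINB1, the leukocyte elastase inhibitor, adjusted p = 0.0521). SERPINB9, which blocks granzyme B, was at 0.74 ± 0.24 (adjusted p = 0.0689). The values of SERPINB10, SERPINB4 and SERPINB6 were 0.49, 0.23 and 0.16. The sign of SERPINB5 depended on the probe, since its second probe gave 0.06 and the pair correlated at only 0.0448 over the 12 arrays.

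Of the 6 tested WFDC-type genes, 1 was called on day 7 (16.7%, near the 18.5% of all genes). WFDC11, a small WFDC protein of uncertain function, read -3.35, -2.46 and -3.42 at day 0, -1.47, 0.24 and -1.30 at day 2, -8.40, -8.49 and -7.70 at day 7, and -5.52, -8.15 and -3.39 at day 14. Day 2 was above day 0 in all cows, and on day 7 no array was above background. WFDC11 was therefore at least 9.54-fold lower on day 7 than on day 0 (fitted log2 change -5.12 ± 1.01, adjusted p = 0.0145) and at least 44.9-fold lower than on day 2 (fitted -7.35 ± 1.01, adjusted p = 0.0367). These bounds hold for the main scaling: with normexp background correction and quantile normalisation the fitted changes were only -1.45 and -3.19, both still called. The drop from day 2 to day 7 was the only call in that comparison among the 35 genes (2.86%, against 0.502% of all genes, 0.329% in the lower direction), and it was lost without cow 1 (adjusted p = 0.538) or cow 2 (adjusted p = 0.169), while 5 genes were called without cow 3. It was also lost without the filter on dim probes, with an adjusted p of 0.0506, and with only the days compared in the fit (0.104).

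SLPI, the secretory leukocyte protease inhibitor of mucosal fluids, varied more between cows than between days. It read -2.25, -7.70 and -7.10 at day 0, -1.89, -4.74 and -4.77 at day 2, -4.94, -4.72 and -3.00 at day 7, and -2.28, -7.22 and -0.87 at day 14. The groups overlapped on every day, and on day 0 only cow 1 was above background. The differences from day 0 were 1.88 ± 1.44, 1.47 ± 1.44 and 2.23 ± 1.44 (SE), and none was called (adjusted p = 0.493, 0.506 and 0.409). Its 3 probes did not all follow each other, with a lowest correlation of 0.36 over the 12 arrays. A less bright probe fell from -5.0, -5.6 and -7.3 at day 0 to -7.2, -6.4 and -7.5 at day 2. The remaining probe was higher on day 2 in every cow.

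PI3 (elafin, an elastase inhibitor) depended on which probe was read. Its brightest probe stood at -0.14, 1.43 and -0.03 at day 0, 1.51, 2.11 and 1.29 at day 2, -1.34, -0.30 and 5.12 at day 7, and -0.48, 0.44 and 0.10 at day 14. Cow 3 alone was high on day 7 while cows 1 and 2 were below their day 0 values. The day 7 difference was 0.74 ± 1.28 (adjusted p = 0.715), and without cow 3 it was -1.46 (adjusted p = 0.0243). Both probes of the repeat, shown above, gave -1.84 and -1.58 on day 7, and the probe of the unnamed transcript that overlaps probe B gave -2.01. None of these probes passed the test with all cows, and the mean over the 3 PI3 probes was -0.90.

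WFDC2 (HE4), a secreted epithelial protein, read 4.16, 3.47 and 1.77 at day 0 and 0.46, 2.42 and 2.91 at day 7. Cows 1 and 2 were lower and cow 3 was higher, so the difference of -1.21 ± 0.83 was not called (adjusted p = 0.334). WFDC1 and WFDC3 differed by 0.78 ± 0.35 and -0.95 ± 0.41 (adjusted p = 0.152 and 0.14).

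Most genes with several tested probes gave 1 direction. Of 16 genes with at least 2 tested probes, 13 had the same sign for all probes on day 7, and in 9 all probes correlated above 0.9 over the 12 arrays, which share the cows and days. The exceptions in sign were PI3, SERPINB5 and SERPINB6, whose 8 probes ran from -0.16 to 0.36. The 19 genes with a single probe, which include SERPINA14, SERPINF2, SERPINA3-6 and WFDC11, have no such check. Nor have SERPINA3, SERPINB1, SERPINB2, SERPINB4 and SERPIND1, for which only the brightest of several probes passed the filter. For SERPINA3, SERPINB1 and SERPINB4 the brightest probe was above background on all 12 arrays and the others on 0, so their probes disagree in level.

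**Figure D4:**
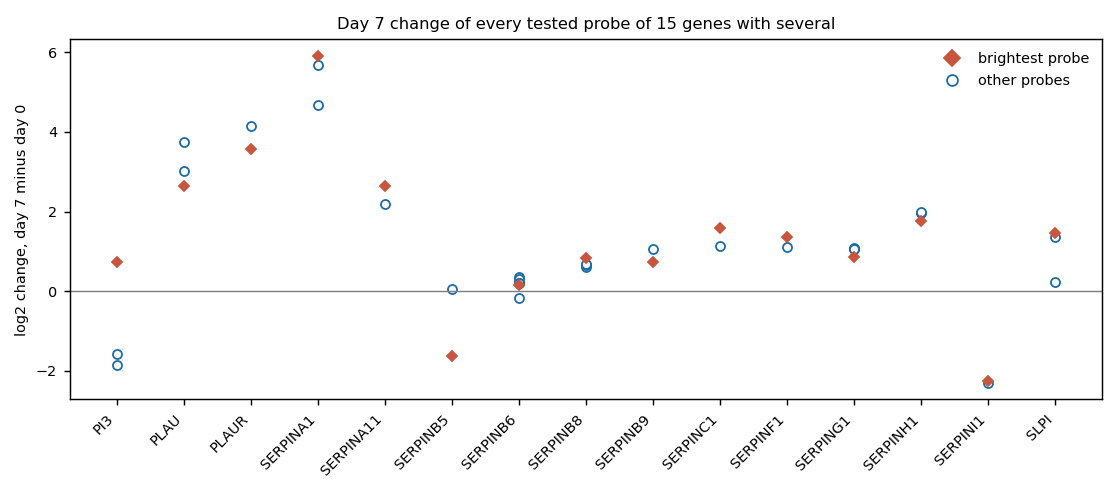
Day 7 minus day 0 difference (y axis, log2, mean of 3 cows) of every tested probe of 15 genes with several probes (x axis); diamonds are the brightest probes, circles the others. The probes of SERPINF1, SERPING1 and SERPINH1 lie close together, while those of PI3 lie on both sides of 0.

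By day 14 no gene of the set was called against day 0 by limma (0 of 35, with 12 at an unadjusted p of 0.05; 0.0889% of all genes were called). Nor was any called between day 7 and day 14 (0 of 35, with 14 at an unadjusted p of 0.05; 0.141% of all genes). Of the 13 genes called on day 7, SERPINA3-6 and WFDC11 were not well above background on any array of day 0 or of day 7, respectively, and give no share. The other 11 had day 14 means nearer to day 0, in 8 of them in all 3 cows. Their day 14 mean held a median of 46.7% of the day 7 change, with -3.0% for SERPINA14, 26.8% for SERPINF2 and 63.8% for SERPINB8. These shares use the day 7 values that made the calls, and day 7 and day 14 share the day 0 arrays, so they are a description. SERPINA14 and SERPINF2 were above background on only 2 of 3 day 14 arrays, which makes their shares rough. The order on day 2 differed among the genes: SERPINA11 had reached 116.1% of the day 7 change, PLAU 70.7%, SERPINA14 69.7% and PLAUR 59.5%, but SERPINF2 only 11.96%, SERPINI1 17.3% and SERPINF1 26.3%. The mean was lowest on day 0 in 19 of the 35 genes (54.3%, against 31.7% of all genes) and highest on day 7 in 14 (40%, against 30.8%).

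Other genes of the same pathways were called on day 7 about as often as all genes, 12 of 57 tested over 5 lists (21.1%, beside 18.5%). Of 6 tested genes for plasminogen binding and clearance, 2 rose on day 7, ENO1 (0.57), a surface plasminogen receptor in some cells, and IGF2R (0.81), which binds the urokinase receptor, while PLG and VTN were above background on no array. Plasminogen itself has therefore no measured level here. Of 18 clotting genes, 3 rose, TFPI (3.20), the inhibitor of tissue factor, PROC (2.09), the anticoagulant protein C, and KNG1 (3.71), a kininogen, and F3 (-1.14), tissue factor, fell. TFPI was the 1 gene of that list called on day 2 (2.42, adjusted p = 0.0204). Of 4 thrombin and protease-activated receptors, F2RL2 rose (1.39) and F2RL1 fell (-1.94).

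Of 14 tested serine proteases that serpins and WFDC proteins can inhibit, PRSS23 alone was called, higher on day 7 (2.00). Of 15 inhibitors of other families, 3 rose on day 7, A2M (3.83), which traps proteases of all classes, AMBP (1.37) and the cathepsin inhibitor CSTB (0.61). The median day 7 change was 0.51 for plasminogen binding, 0.37 for clotting, -0.72 for the receptors, 0.15 for the serine proteases and 0.35 for the other inhibitors, beside 0.01 for all genes. On day 14 no gene of these 5 lists was called.

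Each biopsy is a mixture, and in bulk RNA fewer cells of a type and less RNA per cell cannot be told apart. Markers of several cell types also differed between days. Summed over a list, with the array's 75th percentile as 1, the level of 7 neutrophil markers was 0.443 to 1.02 on day 0, 3.22 to 8.83 on day 2, 1.09 to 4.90 on day 7 and 0.764 to 2.07 on day 14. S100A12 was the 1 neutrophil marker of 6 tested that was called, on day 2 (3.78) and day 7 (2.54). Macrophage markers summed to 13.7 to 16.7 on day 0 and 15.6 to 54.0 on day 7, with 3 of 9 called (CD68, CD14 and CSF1R). Their sums were 16.6 to 28.1 on day 2, with 1 called, and 7.53 to 38.8 on day 14, with 0 called. Endothelial markers summed to 3.09 to 4.64 on day 0 and 4.70 to 7.01 on day 7, with 2 of 5 called (PECAM1 and VWF). Smooth muscle markers summed to 39.4 to 57.6 on day 0 and 149.7 to 317 on day 7, with 3 of 5 called (ACTA2, DES and TAGLN). Red cell markers summed to 0.163 to 0.253 on day 0, 0.296 to 0.549 on day 2, 0.0790 to 0.354 on day 7 and 0.928 to 1.34 on day 14, so the day 14 arrays, on which most of the called genes lay nearer to day 0, were above all others. HBB and HBA, the tested pair, differed by 4.56 and 2.22 on day 14 and were not called (adjusted p = 0.0711 and 0.0752). Platelet markers summed to 0.231 to 0.323 on day 0 and 0.259 to 0.551 on day 7, with 0 of 2 called.

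The tissue's own markers did not pass the test. Epithelial markers summed to 55.4 to 68.5 on day 0, 29.3 to 89.5 on day 2 and 43.5 to 74.1 on day 7, with 0 of 7 called on any day, and stromal markers to 154.2 to 158.2 on day 0 and 174.1 to 213.8 on day 7, with 0 of 6 called. T and NK lymphocyte markers summed to 6.56 to 7.77 on day 0 and 6.06 to 14.4 on day 7, with 2 of 6 called (CD2 and NKG7). Ciliated cell markers summed to 0.432 to 0.922 on day 0 and 0.123 to 0.487 on day 7, with 0 of 5 called. Of the liver markers, which matter because antithrombin, antiplasmin and antitrypsin are best known as liver proteins, TTR rose (3.36) and ALB fell (-1.65) on day 7, and the sum of 4 was 6.91 to 13.2 on day 0 and 6.84 to 15.6 on day 7. The median day 7 change of these 4 genes was 1.71. No marker on these lists was below background on all arrays. The part of any of these cell types in the changes was not tested.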

How the data were processed

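Spot intensity values were deposited as scanner output of Agilent Feature Extraction (11.5.1.1 per the file headers, 10.5.1.1 per the submitters' processing notes), with background correction and detrending within each array per the file headers. The authors also deposited a table of log2 values; set against the scanner data, each column is the log2 intensity less the 75th percentile of its array and the median of its probe (largest median absolute difference 0.0007), so scale, centring and direction were found by that comparison alone. Its column medians ran from -0.07 to 0.08. Here log2 intensities of spots of a probe were averaged and each array's 75th percentile over probes was subtracted. The 1417 control spots and 31 probes with outlier flags were left out, and 33539 of 43653 probes, well above background on at least 3 arrays, were fitted with limma 3.58.1 (R 4.3.3), with day and cow as terms (6 residual degrees of freedom). Samples were grouped by day and cow from their titles. Cows pair the samples by design. Arrays of the same cow, which also share a slide, deviated together with a mean correlation of 0.285 (15 of 18 pairs above 0.1). Slide equals cow and array position equals day under the table's naming, so slide cannot be told apart from cow, nor position from day. Arrays are few, which limits the precision. The p-values set a change against the variation left after day and cow are fitted, pooled over all days and moderated across probes. They describe these 3 animals only. On simulated day 7 data, 22% of probes changed by 1 log2 unit were recovered, 74% at 2, 90% at 4 and 98% at 6, with 6 false calls. In that simulation 50 probes were changed at each size, with normal noise and no detection floor. In the real day 7 test 3452 probes were called higher and 2648 lower. Because the adjustment depends on how many probes change, the simulated rates are not the recovery of the real test. Genes called in any comparison, and the members of the plasminogen axis with SLPI and PI3, are given with every value, except 1 gene that is counted but not reported here. Members and lists were chosen with earlier results of these data known. RefSeq (ARS-UCD2.0) gave names: 69 of 94 probes matched by accession. The entry of the SERPINA5 probe now carries another symbol, although SERPINA5 is still a symbol in that annotation. Alternatives tried were other normalisations, background correction, filters, arrays, weights, naming of arrays and leaving out cows.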

Additional observations from a re-analysis of the deposited data

How the results depend on the processing

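Counts of called genes of the 35 were 3 (day 2), 13 (day 7) and 0 (day 14) against day 0, 1 (day 7 against day 2) and 0 (day 14 against day 7). With the arrays named by the scanner file links they were 0, 0, 0, 0 and 1. With array weights, whose fit stopped before convergence, they were 11, 19, 1, 14 and 15, beside 15.9%, 32.1%, 1.06%, 31.6% and 28.3% of all genes. Fitting only the days compared gave 8 on day 7 (6.2% of all genes, 7 of the 13 calls shared) and 0 for day 7 against day 2, where no filter on dim probes also gave 0. Background correction by normexp with quantile normalisation gave 4 on day 14 (2 higher, 2 lower; 2.67% of all genes) and 1 for day 14 against day 7 (1.42%), and the mean of all probes gave 1 on day 14. Leaving out 1 cow, or the day 2 array of cow 3, gave 0 to 2, 0 to 16, 0, 0 to 5 and 0 called genes. Without the cow as a block the counts were 2, 12, 0, 1 and 0; the 4 calls this changed are given above, and it changed no other. The deposited table gave the same counts as the scanner data.

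Signs that turned under the scanner file links were those of SERPINA11 (-0.0895), SERPINH1 (-0.43) and PLAU (-0.74) on day 2, of SERPINA11 (-0.32), SERPINA14 (-3.66), SERPINA3-6 (-0.64), SERPINH1 (-0.0385), SERPINA1 (-1.95), SLPI (-3.32) and PLAT (0.00049) on day 7, and of SERPINA14 from day 7 to day 14 (4.10). PI3 on day 7 turned with array weights (-0.75), the mean of all probes (-0.90) and without cow 3 (-1.46 to 1.97 over the cows left out), SERPINB2 with array weights (1.34) and without cow 1 (-2.15 to 1.06), and PLAT without cow 3 (-0.34 to 0.16). The links name another sample for 10 of the 12 arrays, so those fits compare other arrays. The mean for PI3 takes in the probes of the repeat, which gave negative changes. What lies behind the turns with array weights or without a cow was not tested. With 3 cows, changes of 1 log2 unit were mostly missed in a simulation with few changed probes, so a gene not called may still have changed. Genes near background give bounds rather than folds.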
